A study of Mus musculus with 4 samples.

Results

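The genes described here make and use microRNAs in mouse oocytes. They are 6 genes chosen by symbol, namely Drosha, Dgcr8, Xpo5, Dicer1, Tarbp2 and Ago2, and they take up 7 of the 25587 rows of the deposited expression table, where Ago2 has 2 rows under its older symbol Eif2c2. RNA was sequenced from non-growing oocytes (NGOs) of mice aged 5 days, growing oocytes of mice aged 8 to 14 days (GO1) and 15 days (GO2), and fully grown oocytes (FGOs) of mice aged 20 days, as 1 library per stage. All mice were wild-type animals of the C57BL/6Babr strain, and each library held pooled oocytes, so that values of individual oocytes or animals were not measured. Ribosomal RNA was removed before strand-specific libraries were made, with a dUTP protocol for NGOs and FGOs and with the ScriptSeq kit for GO1 and GO2. Stage and protocol therefore cannot be told apart between NGOs and GO1 or between GO2 and FGOs, whereas the pairs NGO to FGO and GO1 to GO2 were each made with 1 protocol.

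microRNAs are short RNAs that guide the silencing of messenger RNAs. In the nucleus, the RNase III enzyme Drosha, bound to the RNA-binding protein Dgcr8, cuts a hairpin out of a long transcript. Exportin 5, encoded by Xpo5, carries the hairpin to the cytoplasm, where another RNase III enzyme, Dicer1, cuts off its loop with the help of the double-stranded RNA-binding protein Tarbp2. An Argonaute protein takes up the product, and Ago2 is the Argonaute best known for cutting its target. Mouse oocytes are known for a further use of these proteins, since Dicer1 and Ago2 also make and use endogenous short interfering RNAs (siRNAs) from long double-stranded RNA, without Drosha and Dgcr8.

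Expression was deposited as RPKM, that is, reads per kilobase of exon and per library total. Counts recovered from these values added up to between 64057385 and 141337382 per library, and between 16577 and 18129 genes had at least 3 counts. With 1 library per stage there was no replicate check of any difference and no test was possible. The 95 % intervals given here cover counting error only, and reads that carry no molecular identifiers are not independent counts of molecules. The gene values could also hold more than 1 count per read pair, so a widened interval, computed with all counts divided by 4, is given for some differences and is then named as such. A difference was described as past 2-fold when the counts, scaled between libraries by a trimmed mean of log ratios, differed at least 2-fold, which was asked only of genes whose counts in the pair added up to 20 or more. All 8 oocyte markers were detected in every library, with a summed level of 4812 to 6970 RPKM. Since every library was made from oocytes, this does not check the stage labels. In pooled RNA, fewer cells with a transcript and less of it per cell cannot be told apart. All values are relative to the RNA of their own library, and oocytes grow between these stages. A lower value therefore need not mean less transcript per oocyte, which was not measured.

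Dicer1 had the highest RPKM of the 6 genes in every library, and Xpo5 came next in every library. The order below them changed. Drosha followed Xpo5 in NGOs, GO1 and GO2, whereas in FGOs Tarbp2 came between them. Tarbp2 lay above Dgcr8 and Ago2 in NGOs and FGOs and below both in GO1 and GO2. Dgcr8 and Ago2 were neighbours with overlapping counting intervals in NGOs and GO1, and every other pair of neighbours in these orders had separate intervals. Tarbp2 had the largest span of the 6 genes over the libraries, with its highest value 5.18 times its lowest, followed by Drosha (2.81 times), and Xpo5 had the smallest (1.26 times).

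**Figure D1:**
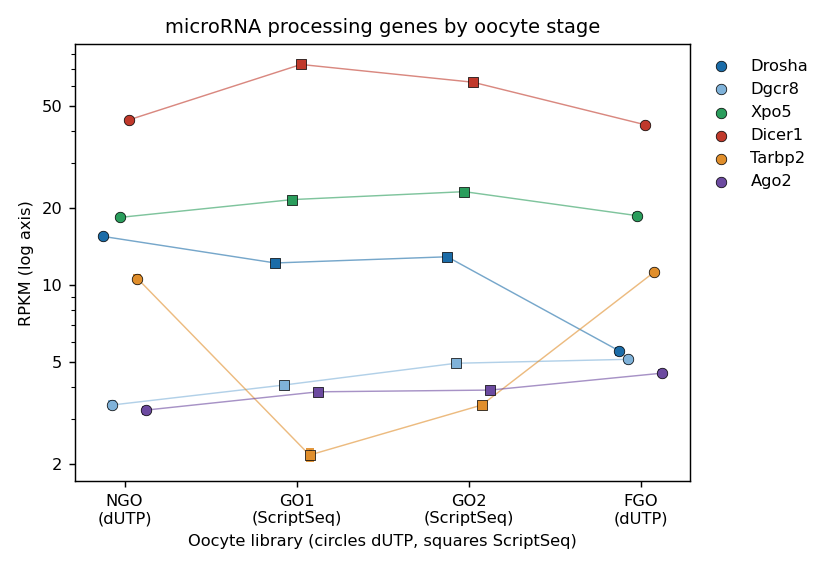
RPKM (log axis) of the 6 microRNA processing genes in the NGO, GO1, GO2 and FGO libraries, with 95 % Poisson intervals for counting error, which are mostly smaller than the symbols. Circles are dUTP libraries and squares ScriptSeq libraries, and the lines only join values of the same gene. Dicer1 is highest in each library (42.4 to 73 RPKM), Drosha is lowest in FGOs (5.52 RPKM), and Tarbp2 is higher in both dUTP libraries (10.6 and 11.2 RPKM) than in both ScriptSeq libraries (2.16 and 3.39 RPKM).

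Drosha, the nuclear RNase III, lies on the plus strand of chromosome 15 (12824815 to 12935290, GRCm38). Its level was 15.5 RPKM in NGOs (interval 15.2–15.8), then 12.2 in GO1 (12.0–12.5), 12.9 in GO2 (12.7–13.1) and 5.52 in the FGO library (5.34–5.69). FGOs had the lowest value, below the other dUTP library and below both ScriptSeq libraries. From NGOs to FGOs the log2 difference in scaled counts was -1.44 (interval -1.49 to -1.39), a 2.71-fold lower level. From GO1 to GO2 the log2 difference was 0.05, and its widened interval, -0.03 to 0.12, included 0. Drosha thus differed past 2-fold between the dUTP libraries and by little between the ScriptSeq libraries. Between GO2 and FGOs, across protocols, the log2 difference was -1.34, or 2.53-fold lower in FGOs.

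Drosha starts head to head with 6030458C11Rik, a gene on the minus strand whose table row begins 157 bases away. That neighbour had 26 RPKM in NGOs, then 35.6 in GO1, 35.7 in GO2 and 30.7 in the FGO library. It was highest in GO1 and GO2 and higher in FGOs than in NGOs, with a log2 difference of 0.29 from NGOs to FGOs, so that the paired genes differed in direction. The stretch between both starts, chr15:12824658-12824814 of the RefSeq sequence (GRCm38.p6), is shown on the plus strand because both genes are transcribed away from it, with 3 matches to CCAAT on either strand in capitals:

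Drosha and 6030458C11Rik: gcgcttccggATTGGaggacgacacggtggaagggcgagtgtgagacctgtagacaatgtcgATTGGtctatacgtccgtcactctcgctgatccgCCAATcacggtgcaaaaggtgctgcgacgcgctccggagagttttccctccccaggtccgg

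Of 32851 RefSeq promoter windows of 300 bases, 37.4 % held at least 1 match to CCAAT on either strand and 3.37 % at least 3. The windows of Drosha and Tarbp2 each held 3 matches, that of Dgcr8 held 4, that of Dicer1 held 1 and that of Xpo5 held 0. No window was used for Ago2. The motif was picked after the sequence had been read, and a match is a description of the letters only.

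Dgcr8, the RNA-binding partner of Drosha (chromosome 16, 18253948 to 18289249, minus strand), was higher, not lower, in FGOs than in NGOs. Its level was 3.39 RPKM in NGOs (3.27–3.52), then 4.06 in GO1 (3.93–4.19), 4.94 in GO2 (4.83–5.04) and 5.12 in the FGO library (4.97–5.27). NGOs had the lowest value and FGOs the highest. The log2 difference was 0.65 from NGOs to FGOs (interval 0.58 to 0.72) and 0.25 from GO1 to GO2 (0.19 to 0.31), both under 2-fold. The RPKM of Drosha was 4.58 times that of Dgcr8 in NGOs, then 3.01 times in GO1, 2.62 times in GO2 and 1.08 times in the FGO library. In FGOs the widened interval of this ratio, 0.988 to 1.17, included 1, although the counting intervals of the levels of both nuclear partners were separate.

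The row of Dgcr8 overlaps that of Trmt2a, on the other strand, by 825 bases. The strand setting of the gene values is not given in the sources used here, so reads in the overlap cannot be assigned to either gene. Trmt2a had 3.62 RPKM in NGOs, then 1.28 in GO1, 1.83 in GO2 and 3.81 in the FGO library, higher in both dUTP libraries, which was not the pattern of Dgcr8.

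Xpo5, which encodes the export receptor of the hairpins (chromosome 17, 46202855 to 46242299, plus strand), varied least. It had 18.4 RPKM in NGOs (18–18.8), then 21.6 in GO1 (21.2–22), 23.2 in GO2 (22.9–23.5) and 18.7 in the FGO library (18.3–19.1). Both ScriptSeq libraries were above both dUTP libraries, and within each protocol the libraries differed little. The log2 difference was 0.08 from NGOs to FGOs (widened interval -0.01 to 0.17) and 0.07 from GO1 to GO2 (interval 0.04 to 0.10). Xpo5 also has a head-to-head neighbour, Polh, which encodes a DNA polymerase for damaged templates and whose row begins 229 bases away on the minus strand. Polh had 2.58 RPKM in NGOs, then 1.25 in GO1, 1.32 in GO2 and 1.82 in the FGO library, and unlike Xpo5 it was lower in both ScriptSeq libraries. The stretch between the outermost annotated starts of this pair, chr17:46202646-46202781 (GRCm38.p6, RefSeq, plus strand), is shown because the longest word that occurs more than once in it, the palindrome GCGCATGCGC of 10 bases, is present 2 times, in capitals:

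Xpo5 and Polh: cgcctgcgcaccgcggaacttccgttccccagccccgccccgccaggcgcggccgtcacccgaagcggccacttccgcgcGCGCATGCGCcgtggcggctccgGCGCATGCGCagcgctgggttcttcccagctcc

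At least 1 match to this palindrome was present in 0.971 % of the promoter windows of 300 bases and at least 2 in 0.0335 %. Among the windows of the members, that of Xpo5 held 2, and those of Drosha, Dgcr8, Dicer1 and Tarbp2 held 0. This word, too, was picked after the sequence had been read. The 5 windows of members had 59 to 77.3 % G and C, against a median of 52.7 % over all windows.

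Dicer1, the cytoplasmic RNase III (chromosome 12, 104687742 to 104751952, minus strand), had 44.3 RPKM in NGOs (43.9–44.7), then 73.0 in GO1 (72.5–73.4), 62.2 in GO2 (61.9–62.6) and 42.4 in the FGO library (42.1–42.8). Both ScriptSeq libraries were above both dUTP libraries. The log2 difference from NGOs to FGOs was -0.01 (interval -0.03 to 0.01) with trimmed-mean scaling, -0.06 with library totals alone and 0.03 with median-of-ratios scaling, so that its sign depended on the scaling. For Dicer1 from GO1 to GO2 it was -0.26 (-0.27 to -0.25), a 1.20-fold lower level. Across protocols Dicer1 was 1.80-fold higher in GO1 than in NGOs and 1.58-fold lower in FGOs than in GO2. Among all table rows its rank by RPKM was 673 in NGOs, then 343 in GO1, 378 in GO2 and 726 in the FGO library. The deposited table gives 1 value for the gene, so the shorter oocyte isoform of Dicer1, which starts at a retrotransposon inside the gene, was not separated from the full-length isoform.

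Set against the other members, the RPKM of Dicer1 was 2.85 times that of Drosha in NGOs, then 5.97 times in GO1, 4.82 times in GO2 and 7.69 times in the FGO library. Against Xpo5 the ratio of RPKM stayed between 2.27 and 3.38. Against Ago2 it was 13.7 in NGOs, then 19.1 in GO1, 16.0 in GO2 and 9.38 in the FGO library. FGOs therefore had the highest ratio of Dicer1 to Drosha and the lowest ratio of Dicer1 to Ago2.

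Tarbp2, the double-stranded RNA-binding partner of Dicer1 (chromosome 15, 102518192 to 102523676, plus strand), had 10.6 RPKM in NGOs (10.3–10.9), then 2.16 in GO1 (2.04–2.28), 3.39 in GO2 (3.28–3.50) and 11.2 in the FGO library (10.9–11.5). The libraries separated by protocol, with no overlap. Within the protocols the log2 difference was 0.13 from NGOs to FGOs (0.08 to 0.19) and 0.62 from GO1 to GO2 (0.53 to 0.71), or 1.54-fold. Across them Tarbp2 was 4.48-fold lower in GO1 than in NGOs and 3.06-fold higher in FGOs than in GO2, and these differences cannot be told apart from the change of protocol. The RPKM of Dicer1 was 4.19 times that of Tarbp2 in NGOs and 3.80 times in FGOs, but 33.8 times in GO1 and 18.3 times in GO2. The recovered length was 4549 bases for Tarbp2, all its annotated exons joined, and 9851 for Dicer1, a transcript. The size of these ratios and the place of Tarbp2 among the members depend on such lengths, which was not tested.

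The split of Tarbp2 by protocol was set against that of all genes. Of 12924 genes that reached 20 counts in all libraries, 674 (5.22 %) were likewise at least 2-fold higher in both dUTP libraries than in both ScriptSeq libraries, and Tarbp2 was the only member of these. The opposite pattern at 2-fold was found for 144 genes (1.11 %) and for none of the 6 members. By any amount, both dUTP libraries were above both ScriptSeq libraries for 32.8 % of genes, Tarbp2 among them. Both ScriptSeq libraries were above both dUTP libraries for 21.3 % of genes, Xpo5 and Dicer1 among them.

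Ago2, the cutting Argonaute, has a long row (chromosome 15, 73098592 to 73184840, minus strand) and a short one. The long row had 3.24 RPKM in NGOs (3.14–3.34), then 3.82 in GO1 (3.72–3.93), 3.88 in GO2 (3.81–3.96) and 4.52 in the FGO library (4.41–4.64). NGOs were lowest, FGOs highest, and the intervals of GO1 and GO2 overlapped. The log2 difference was 0.53 from NGOs to FGOs (0.48 to 0.59) and -0.01 from GO1 to GO2 (-0.06 to 0.04). The short row covers 841 bases (73095844 to 73096684) that lie inside the row of Chrac1, a gene on the other strand. In the order of growth its counts were 34, 46, 49 and 16, or 0.366, 0.431, 0.241 and 0.159 RPKM. Its log2 difference from NGOs to FGOs was -1.10, but the widened interval, -3.31 to 0.72, included 0, and Chrac1 itself had 1.12 RPKM in NGOs and 0.657 in FGOs. The values of Ago2 given below are those of the long row.

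From NGOs to FGOs, 2 of the 7 rows were past 2-fold lower, those of Drosha and the short row of Ago2, beside 16.8 % of all 15270 genes tested, and 0 were past 2-fold higher, beside 17.7 %. From GO1 to GO2, 0 rows were past 2-fold in either direction, beside 6.52 % of 15748 genes higher and 3.05 % lower. The median log2 difference of the 7 rows was 0.08 (NGO to FGO) and 0.05 (GO1 to GO2), against -0.01 and 0.01 over all genes tested. Across protocols, 1 row (Tarbp2) was past 2-fold lower from NGOs to GO1, beside 21.3 %, and 0 were higher, beside 16.5 %. From GO2 to FGOs, 1 row (Tarbp2) was higher, beside 11.1 %, and 1 (Drosha) was lower, beside 9.1 %. From NGOs to GO1 the median log2 difference of all genes tested was -0.15 with library totals alone and -0.03 after scaling. From GO2 to FGOs it was 0.11 with library totals alone and 0.00 after scaling. Within the protocols the scaling moved log2 differences by under 0.1.

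The other Argonautes were read beside Ago2. Their proteins also bind microRNAs. Ago3 had 1.93 RPKM in NGOs, then 3.36 in GO1, 3.27 in GO2 and 3.05 in the FGO library, and it was lowest in NGOs, as Ago2 was. Ago1 had 0.399, 0.11, 0.0694 and 0.0515 RPKM in the same libraries, and was past 2-fold lower from NGOs to FGOs (log2 -2.88, widened interval -3.88 to -2.04). With 0.1 added to the RPKM, the log2 difference of Ago1 was -1.72. Ago4 had 0.327 RPKM in NGOs, then 0.126 in GO1, 0.227 in GO2 and 0.384 in the FGO library. Ago2 made up 54.9 % of the summed RPKM of the 4 Argonautes in NGOs, then 51.5 % in GO1, 52.2 % in GO2 and 56.5 % in the FGO library, so that its share moved little, and Ago3 made up 32.8, 45.3, 43.9 and 38.1 %. Ago1 and Ago4 made up the rest, and the share of Ago1 was 6.76 % in NGOs and 0.642 % in FGOs.

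**Figure D2:**
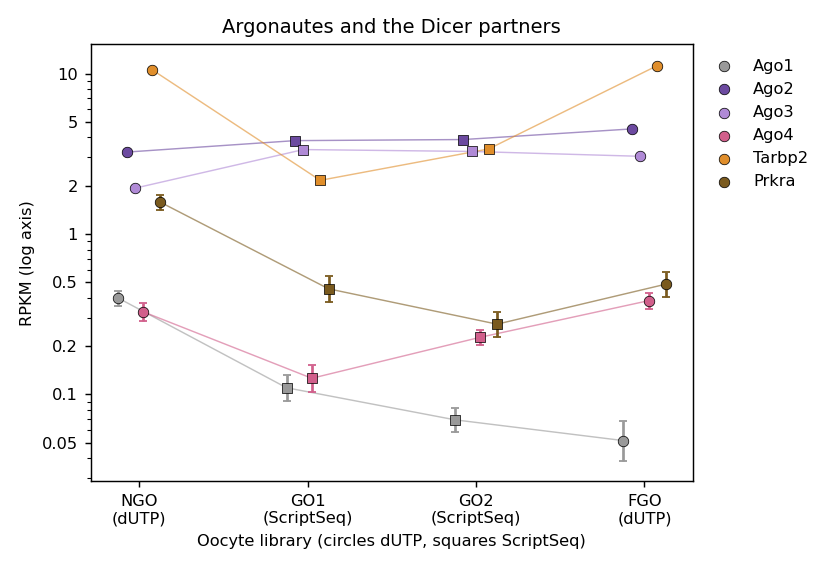
RPKM (log axis) of the 4 Argonaute genes and of Tarbp2 and Prkra, which encode Dicer1 partners, in the 4 libraries, with 95 % Poisson intervals for counting error. Circles are dUTP and squares ScriptSeq libraries. Ago2 and Ago3 lie between 1.93 and 4.52 RPKM in all libraries, and Ago1 and Ago4 at or below 0.399 RPKM. Prkra is highest in NGOs (1.58 RPKM).

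Prkra, which encodes the other double-stranded RNA-binding partner of Dicer1, had 1.58 RPKM in NGOs, then 0.455 in GO1, 0.274 in GO2 and 0.486 in the FGO library. It stood well above the other stages in NGOs and was past 2-fold lower from NGOs to FGOs (log2 -1.64, widened interval -2.30 to -1.03), which Tarbp2 was not. The RPKM of Tarbp2 was 6.69 times that of Prkra in NGOs, then 4.74 times in GO1, 12.4 times in GO2 and 23 times in the FGO library.

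Of 9 listed genes for partners of Drosha, Dicer1 and the export step, 4 were past 2-fold lower from NGOs to FGOs and 0 higher, beside 16.8 % of all genes lower and 17.7 % higher. Besides Prkra these were Ddx17 (log2 -1.05), an RNA helicase found with Drosha, Ncbp1 (-1.54), a subunit of the nuclear cap-binding complex, and Ran (-1.66), the GTPase that drives Exportin 5 and other transport receptors. Ran had 46.9 RPKM in NGOs, then 19.7 in GO1, 13.8 in GO2 and 14.3 in the FGO library, highest by far in NGOs. Each read was placed at 1 position in the genome, which bears on genes with processed pseudogenes such as Ran. The other 5 did not pass 2-fold. They were Adar (log2 0.56), which edits double-stranded RNA, the helicase Ddx5 (-0.12), the splicing regulator Khsrp (-0.01), which also binds microRNA precursors, Srrt (-0.47), a partner of the cap-binding complex, and Xpo1 (-0.24), the export receptor of many proteins. Between GO1 and GO2, 0 of the 9 were past 2-fold, beside 6.52 % of all genes higher and 3.05 % lower. The medians of the list, -0.47 (NGO to FGO) and -0.55 (GO1 to GO2), lay below those of all genes, -0.01 and 0.01.

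Chaperones that load Argonautes with short RNA formed a list of 6, of which 3 were past 2-fold lower from NGOs to FGOs and 0 higher, beside 16.8 % of all genes lower and 17.7 % higher. Their median log2 difference was -0.92, against -0.01 over all genes. Hsp90ab1, an HSP90 gene, had the largest difference in both within-protocol pairs. It had 219 RPKM in NGOs, then 166 in GO1, 77 in GO2 and 61.3 in the FGO library, with log2 differences of -1.78 (NGO to FGO) and -1.15 (GO1 to GO2). From GO1 to GO2, 6.52 % of all genes were past 2-fold higher and 3.05 % lower. Hsp90ab1 was the only one of the 62 rows of members and listed genes past 2-fold in that pair. Its relative Hsp90aa1 had 133 RPKM in NGOs, then 409 in GO1, 224 in GO2 and 74.7 in the FGO library, the highest value of the list in GO1, GO2 and FGOs. The other members of the list past 2-fold were Hspa8 (log2 -1.22 from NGOs to FGOs) and Fkbp4 (-1.06), an immunophilin that binds HSP90. All 6 chaperones had negative log2 differences in both pairs, where the medians of all genes were -0.01 and 0.01. How many of all genes were negative in both was not counted. Across protocols, from NGOs to GO1, the median of the list was 0.61, against -0.03 over all genes. Hsp90ab1 (-0.27) and Fkbp4 (-0.94) were lower in GO1 than in NGOs, and the other chaperones were higher.

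Silencing effectors, the proteins that carry out repression and decay of targets, formed a list of 22. From NGOs to FGOs 2 were past 2-fold higher, 3 lower and 17 neither, where 17.7 % of all genes were higher and 16.8 % lower, so that neither count stood above the share of all genes. The median log2 difference of the list was 0.21, against -0.01 over all genes. The largest difference upward was that of Mov10, an RNA helicase found with Argonautes (0.315, 0.187, 0.366 and 0.924 RPKM in NGOs, GO1, GO2 and FGOs, log2 1.60, widened interval 1.06 to 2.18), and the other was that of Limd1 (log2 1.48), an Argonaute-binding protein. The largest downward was that of Dcp1b, a decapping factor at low level (0.424 RPKM in NGOs and 0.108 in FGOs, log2 -1.90, widened interval -2.70 to -1.20), followed by the helicase Ddx6 (-1.37) and the deadenylase scaffold Cnot1 (-1.02, and -0.98 with median-of-ratios scaling). The relative of Dcp1b, Dcp1a, had the highest RPKM of the list in each library, 58.9 in NGOs, then 105 in GO1, 101 in GO2 and 86.6 in the FGO library. Between GO1 and GO2, 0 of the 22 were past 2-fold, beside 6.52 % of all genes higher and 3.05 % lower. The median log2 difference of the list was -0.10 in that pair, against 0.01 over all genes.

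Of 12 listed genes for the tailing and turnover of microRNAs and their precursors, 11 are in the table. From NGOs to FGOs 2 of the 11 were past 2-fold lower and 0 higher, beside 16.8 % of all genes lower and 17.7 % higher, and the median log2 difference was -0.43, against -0.01. Tut4, a terminal uridylyl transferase, had the largest difference (0.254, 0.272, 0.152 and 0.0818 RPKM, log2 -1.57, widened interval -2.37 to -0.85), which was -0.96 and under 2-fold with 0.1 added to the RPKM, and the other was Trim71 (log2 -1.45), a ubiquitin ligase regulated by let-7. Lin28a, which blocks the maturation of let-7, had the highest RPKM of the list in each library and varied little, with 35.9 in NGOs, then 39.1 in GO1, 36.4 in GO2 and 30.9 in the FGO library. Between GO1 and GO2, 0 of the 11 were past 2-fold, beside 6.52 % of all genes higher and 3.05 % lower.

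The last list holds 4 genes chosen as targets of siRNAs in mouse oocytes. Which transcripts such siRNAs are made from was not tested for any of them. Rangap1, which encodes the GTPase activator of Ran, had 28.6 RPKM in NGOs, then 7.96 in GO1, 4.57 in GO2 and 6.2 in the FGO library (log2 -2.15 from NGOs to FGOs). Ppp4r1, a phosphatase subunit gene, had 15.2, 11.8, 9.56 and 6.42 RPKM (log2 -1.19). Hdac1, a histone deacetylase gene, had 0.682, 1.42, 0.956 and 0.153 RPKM (log2 -2.09, widened interval -3.00 to -1.29). Each of these 3 was past 2-fold lower from NGOs to FGOs, beside 16.8 % of all genes. Kif4, a kinesin gene, had 135 RPKM in NGOs, then 125 in GO1, 105 in GO2 and 66.1 in the FGO library, with a log2 difference of -0.98, just short of 2-fold, and -1.04 with library totals alone. The median of the list was -1.64 (NGO to FGO) and -0.47 (GO1 to GO2), against -0.01 and 0.01 over all genes. From GO1 to GO2, 0 of the 4 were past 2-fold, beside 6.52 % of all genes higher and 3.05 % lower. Placing each read at 1 position can shift reads between such genes and their pseudogenes, and the table row Kif4-ps had 0.244 RPKM in NGOs, then 0.613 in GO1, 0.568 in GO2 and 0.328 in the FGO library.

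**Figure D3:**
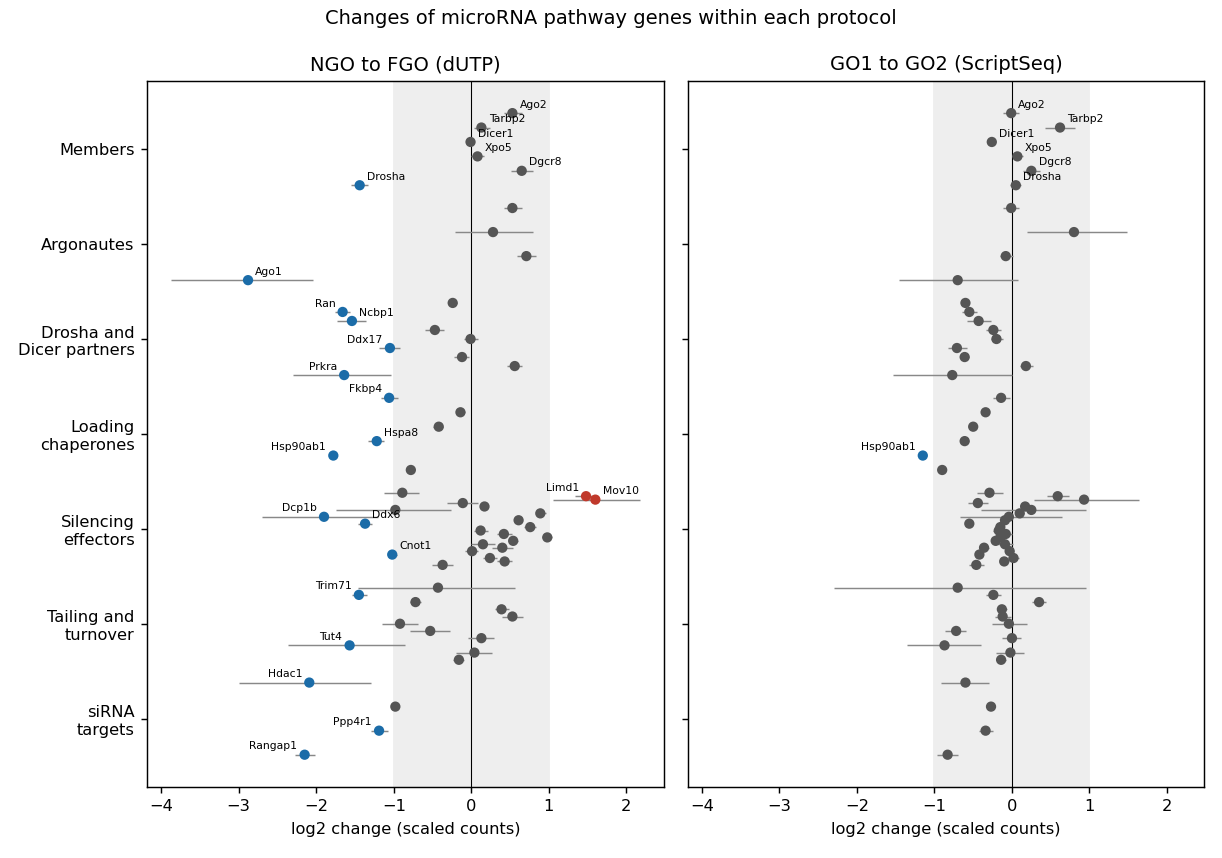
Log2 difference in scaled counts of the 6 members and of the listed genes, for NGO to FGO (left) and GO1 to GO2 (right), with widened counting intervals and 1 point per gene. Ago2 is plotted with the members and again with the Argonautes, its short row is left out, the grey band spans differences under 2-fold, and genes past 2-fold are blue (lower) or red (higher). Among the members, Drosha alone lies outside the band on the left (-1.44), and on the right Hsp90ab1 (-1.15) is the only gene outside it.

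Taking members and lists together, 62 of 63 rows were in the table and tested. From NGOs to FGOs 18 were past 2-fold lower, 2 higher and 42 neither, beside 16.8 % of all genes lower and 17.7 % higher, and the median log2 difference was -0.15. From GO1 to GO2, 1 was lower and 0 were higher, beside 3.05 % of all genes lower and 6.52 % higher, with a median of -0.18, against 0.01. In the plot of both pairs against each other, Drosha sits apart from the other members on the left, near 0 on the GO1 to GO2 axis. Both axes come from separate libraries, and both rest on 1 library per stage.

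**Figure D4:**
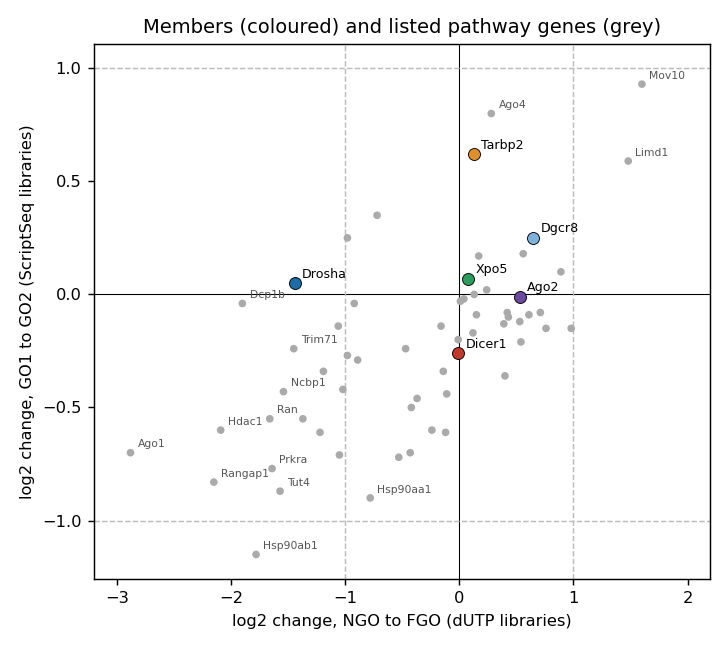
Log2 difference from GO1 to GO2 (vertical) against that from NGOs to FGOs (horizontal) for the 6 members (coloured) and the listed genes (grey), 1 point per gene. Dashed lines mark 2-fold. Drosha is at -1.44 and 0.05, Tarbp2 at 0.13 and 0.62, Dgcr8 at 0.65 and 0.25, Ago2 at 0.53 and -0.01, Xpo5 at 0.08 and 0.07, and Dicer1 at -0.01 and -0.26.

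Profiles over the 4 libraries were compared by the root mean square distance of log2 RPKM after each gene was centred on its own mean. Of the 6 members, Dgcr8 and Ago2 were the closest pair (0.111), and Tarbp2 was farthest from Drosha and from Dicer1 (1.36 each). Among 10756 genes that reached 100 counts in all libraries, the nearest to Drosha were Epha7 (0.0767), Myom1 (0.127) and Pitrm1 (0.129), all with their lowest RPKM in FGOs. Those nearest to Dgcr8 were Rnf25 (0.0134), Pramef12 (0.0143) and Spag5 (0.0175), and those nearest to Xpo5 were Llph (0.012), Napg (0.0126) and Mrpl47 (0.0153). Dicer1 was nearest to Add3 (0.00925), Mtdh (0.00989) and Sh3rf3 (0.0171). Tarbp2 was nearest to Mcat (0.0225), Gm20532 (0.0233) and Phgdh (0.0462), all lower in both ScriptSeq libraries. Ago2 was nearest to Xrcc2 (0.00661), Gemin6 (0.0151) and Palb2 (0.0154). Over 4 points, and with depth and protocol shared by all genes, these distances are descriptions of the profiles only. The gene nearest to Drosha was farther from it than the nearest gene of any other member.

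Genes for microRNAs were read only from rows whose symbol starts with Mir, and microRNA genes without such a row were not measured. Of 7 such rows, 2 had at least 3 counts in every library and 5 were listed at 0. Mir17hg, the host transcript of a microRNA cluster, had counts of 125, 162, 204 and 51 in the order of growth, lowest in FGOs. Mir30d had between 6 and 15 counts. Mature microRNAs and siRNAs, and the activity of the proteins, were not measured.

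Markers of other ovarian cells moved with the libraries. The summed RPKM of 6 stromal markers was 5.51 in NGOs and between 0.158 and 0.245 in the others, with Col1a1 at 2.24 in NGOs and at or below 0.0191 elsewhere. The sum of 10 granulosa markers was 3.24 in NGOs, then 2.68 in GO1, 5.11 in GO2 and 10.4 in the FGO library, of which Cyp19a1 alone gave 6.08 in FGOs, while Foxl2 was at or below 0.0753 in every library. The 6 blood markers in the table summed to between 0.342 and 1.83 RPKM, highest in NGOs. The 3 endothelial markers summed to 1.81 in NGOs, then 5.18 in GO1, 8.36 in GO2 and 9.81 in the FGO library, nearly all of it Pecam1. Between 1 and 4 blood markers were at 0 in each library, and 1 stromal marker in GO1, GO2 and FGOs. NGOs, with the most stromal RNA, also had the highest RPKM of Drosha and of 17 of the 56 listed genes. Of 12924 genes that reached the minimum count in all libraries, 38.9 % were likewise highest in NGOs. Among the 17 listed genes were Ago1, Prkra, Ddx17, Ncbp1, Ran, Hsp90ab1, Fkbp4, Dcp1b, Trim71, Rangap1, Ppp4r1 and Kif4. The part of stromal RNA in these values was not tested.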

How the data were processed

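Expression was analysed in 4 libraries, 1 per stage (NGO, GO1, GO2 and FGO). The deposited values are RPKM that the authors made on a linear scale for reference genes. The submitters' processing notes name Trim Galore 0.2.8, TopHat2 2.0.9 and GRCm38, and reads were placed at 1 position each. The program, annotation, library total and strand setting behind the gene values are not given in the sources used here. No column was left unused (0 such columns).

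Library totals were fitted so that RPKM times length was whole for genes with 1 exon in GENCODE (release M21), within 0.001 of a count, which held for at least 99.4 % of values. Exon lengths of other genes were then taken from the exon union (9854 genes, and 546 more after a shift of up to 3 bases), 1 exon (849), a transcript (1128) or the smallest length that gave whole counts (8646), and 4564 rows were at 0. Lengths too small by a factor leave RPKM and log2 differences nearly as they are but lower the counts and widen the intervals. Because these counts are rebuilt, no count model was run. The fitted totals, 110595000 to 241386000, exceed what the study's sequencing would give with 1 count per read pair, so intervals were widened with counts divided by 4, a step chosen after seeing the data.

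Log2 differences used a trimmed mean of log ratios (30 % of ratios and 5 % of mean expression trimmed), a prior count of 1, a minimum of 20 counts in the pair and exact conditional binomial intervals of 95 %. Levels have exact Poisson intervals. A level of 3 counts per kilobase is 0.0124 to 0.0271 RPKM. The steps were tested on simulated data. The counts simulated for log2 differences were independent, so they cannot check the intervals for reads that are not. Python 3.11.15, numpy 2.4.6, pandas 2.3.3, scipy 1.17.1 and matplotlib 3.10.9 were used. RefSeq promoter windows matched 5 of the 6 members, and a planned protein comparison was not run.

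Members, lists and markers were chosen with earlier results of these data known. The text names all members, all genes of the Argonaute, partner and siRNA target lists, from the other lists the largest difference past 2-fold in each direction and the highest RPKM, and the 3 genes nearest to each member. Head-to-head and overlapping neighbours, Limd1, Hspa8, Fkbp4, Ddx6, Cnot1, Cnot7, Edc3, Trim71 and Kif4-ps were named after their values were seen. Alternatives were another scaling, prior count, pseudocount, count minimum and fold threshold.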

Additional observations from a re-analysis of the deposited data

How the results depend on the processing

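Each stage has 1 library, so leaving out a library was not possible. No paired analysis was possible because each stage has only replicate 1 and no result comes from a test. Of the 28 log2 differences of member rows, the sign changed in 2 with RPKM plus 0.1, in 1 with median-of-ratios scaling, in 2 with library totals alone and in 0 with a prior count of 5. The shifts ran from -0.17 to 0.25. With counts divided by 4, the interval came to include 0 for Xpo5 and the short row of Ago2 from NGOs to FGOs, for Drosha and the short row of Ago2 from GO1 to GO2, and for Dgcr8 from GO2 to FGOs.

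The 2 member rows lower from NGOs to FGOs became 1, Drosha alone, with a prior count of 5, with RPKM plus 0.1 and with a minimum of 100 counts. With no filter, median-of-ratios scaling or library totals, each count of member rows and listed genes past 2-fold stayed within 1.5 times its value, but single calls from NGOs to FGOs changed. With library totals alone Kif4 (-1.04) and Edc3 (-1.03) passed 2-fold lower. With median-of-ratios scaling Cnot1 (-0.98) no longer did and Cnot7 (1.01) passed higher. With RPKM plus 0.1 Tut4 (-0.96) no longer did, Kif4 (-1.03) did, and Ago1 moved to -1.72. The fold threshold moved the counts most. At 1.5-fold, member rows higher numbered 1 from NGOs to FGOs, 1 from GO1 to GO2 and 1 from NGOs to GO1, and member rows lower numbered 1 from GO1 to GO2 and 3 from GO2 to FGOs. Of 56 listed genes, 7 were then higher from NGOs to FGOs (2 at 2-fold), where 27 % of all genes were, and from GO1 to GO2 3 were higher and 13 lower (0 and 1 at 2-fold), where 13.9 % and 9.76 % of all genes were. At 4-fold, 0 member rows were lower from NGOs to FGOs, 0 higher and 0 lower from GO2 to FGOs, 0 listed genes were higher and 3 lower from NGOs to FGOs (2 and 16 at 2-fold), where 8.57 % and 5.54 % of all genes were, and 0 were lower from GO1 to GO2 (0.273 % of all genes). For the member rows, the shares of all genes at 1.5-fold were 27, 13.9 and 27.9 % for the 3 counts of higher rows and 9.76 and 19.9 % for the 2 counts of lower rows, and at 4-fold they were 5.54, 1.85 and 3.24 %.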

Other observations

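Of the 56 listed genes, including Ago2, 25 had their highest RPKM in GO1, 17 in NGOs, 10 in FGOs and 4 in GO2, where 21.8 %, 38.9 %, 28.6 % and 10.8 % of 12924 genes that reached 20 counts in all libraries did. In 21 of the 56, both ScriptSeq libraries were above both dUTP libraries, which held for 2758 of the 12924 genes (21.3 %), and the highest stage of these genes cannot be told apart from the protocol. In 7 of the 56, both dUTP libraries were above both ScriptSeq libraries, which held for 4234 of the 12924 genes (32.8 %). Cnot3, a subunit gene of the deadenylase complex, was the only listed gene at least 2-fold higher in both ScriptSeq libraries, with 6.61 RPKM in NGOs, then 22.2 in GO1, 17.6 in GO2 and 8.44 in the FGO library. Mcpip1, an RNase gene, was the only listed gene with the opposite pattern, at 0.264, 0.0794, 0.0503 and 0.189 RPKM. The RPKM of Lin28a was 18.3 times that of its paralog Lin28b in NGOs, then 16.8 times in GO1, 15.6 times in GO2 and 15.9 times in the FGO library. Cnot3, Mcpip1 and Lin28b were named after their values were seen.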
